A study of Mus musculus with 2 samples.

Results

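The genes described are 6 members of the Sox family: Sox1, Sox2 and Sox3, called the SoxB group here, and Sox4, Sox11 and Sox12, which form the SoxC group. They were chosen by gene name, and all 6 were found among 8262 named genes. They held 75 of 57784 different listed positions, 29 in SoxB and 46 in SoxC genes. Both libraries were native poly(A) RNA of wild-type (WT) mouse retinal organoids at day 6, grown from the Rx:GFP cell line in medium with 5% KSR and treated for those 6 days with 0.1 µM of an agent labelled AGN. The 2 libraries form a single group (n = 2) and differ in no stated condition, so no contrast between treatments exists. Nothing in the labels says whether they came from separate cultures, so the spread between them may be technical.

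Sox proteins bind DNA through an HMG box and bend it. SoxB proteins keep neuroepithelial cells in the progenitor state, and Sox2 is required for retinal progenitors to proliferate and form neurons. SoxC proteins act mainly later, in cells that leave the cycle and become neurons. N6-methyladenosine (m6A) is a methyl mark that the METTL3 enzyme complex places on adenosines of messenger RNA, and in other tissues it has been linked to how long an mRNA lasts.

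In direct RNA sequencing the RNA strand itself passes through a pore, entering from its poly(A) tail, and modified bases are called from the current. For each listed position the deposited tables give the fraction modified, from 0 to 1, and the coverage, a count of reads. A site here is a listed position with at least 20 reads in a library, and a shared site has them in both. Since the fraction differs strongly between sequence contexts, each value was set against the median of all sites with the same 5 letters in the same library. That difference is called the deviation from the motif median. The medians ranged from 0.225 ± 0.00849 at GGACC through 0.240 ± 0.0140 at GGACT and 0.265 ± 0.00247 at AGACT up to 0.671 ± 0.00548 at GGACA (mean of both libraries and SD, n = 2). Only 39.5% of the fractions of replicate 1 and 36.1% of those of replicate 2 were whole multiples of 1 read over the coverage, within 0.0001 of the fraction, so the depth behind a fraction is unknown and no interval is given for it.

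The 5-letter contexts of 8 sites are shown here, with the modified adenosine in capitals, because sites with the same letters had very different fractions. They are a close pair each of Sox1 and Sox2 and 1 GGACA site each of 4 genes, picked after their values were seen. The number is the listed end position on the transcript. Compared with the letters at bases 10 to 40 of transcripts in RefSeq (GRCm38.p6), the motif began 3 bases before that position in 16 of 80 cases and in at most 2 at any other start tried, which places the adenosine 1 base before the number.
Sox1 at 2442: agAct
Sox1 at 2455: agAct
Sox2 at 1192: ggAct
Sox2 at 1207: ggAct
Sox1 at 1259: ggAca
Sox3 at 789: ggAca
Sox11 at 6668: ggAca
Sox12 at 2252: ggAca
In both libraries the first site of the Sox1 pair and of the Sox2 pair had the higher fraction, and of the 4 GGACA sites printed, those of Sox3 and Sox11 lay below the 10th percentile of GGACA sites while those of Sox1 and Sox12 lay above the median.

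The organoid identity was checked on listed transcripts. All 6 eye-field markers (Rax, Lhx2, Six3, Six6, Pax6 and Otx2) were listed in both libraries. Rax, Lhx2 and Six6 had shared sites, whereas Six3, Pax6 and Otx2 had none. In replicates 1 and 2, Six3 reached 15 and 32 reads, Otx2 14 and 40, and Pax6 only 7 and 17. Of 6 neuronal markers, 1 was listed, Tubb3, with at most 11 and 17 reads. None of 5 markers of pluripotent cells and none of 7 of mesoderm and endoderm was listed, and since a position is listed from 5 reads up, this does not show that they were absent. Replicate 1 held 26441 listed positions and replicate 2 held 50099.  In whole organoids fewer cells of a type and less RNA per cell cannot be told apart.

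The SoxB transcripts were the deeper ones. Sox3 (chromosome X, 59934972 to 59937036, coordinates as deposited) reached 89 reads in replicate 1 and 222 in replicate 2. Sox2 (chromosome 3, 34704554 to 34706610) reached 67 and 165 reads, and Sox1 (chromosome 8, 12445295 to 12450126) reached 38 and 104. The SoxC genes were shallower in both libraries. Sox11 (chromosome 12, 27384263 to 27392573) reached 30 and 59 reads. Sox12 (chromosome 2, 152235531 to 152239983) reached 27 and 74, and Sox4 (chromosome 13, 29132902 to 29137696) reached 21 and 53. Among all named genes of replicate 1, these maxima lay between the 66.7th percentile (Sox4) and the 92.6th (Sox3), and in replicate 2 between the 79.8th and the 96.2nd. Sox1 had 9 shared sites, Sox2 had 8, Sox3 had 6, Sox11 and Sox12 had 3 each and Sox4 had 1, 30 in all. A total of 23 shared sites were in SoxB and 7 in SoxC, while at any depth 24 and 26 positions were listed in both libraries, so the minimum of 20 reads removed mainly SoxC positions.

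**Figure D1:**
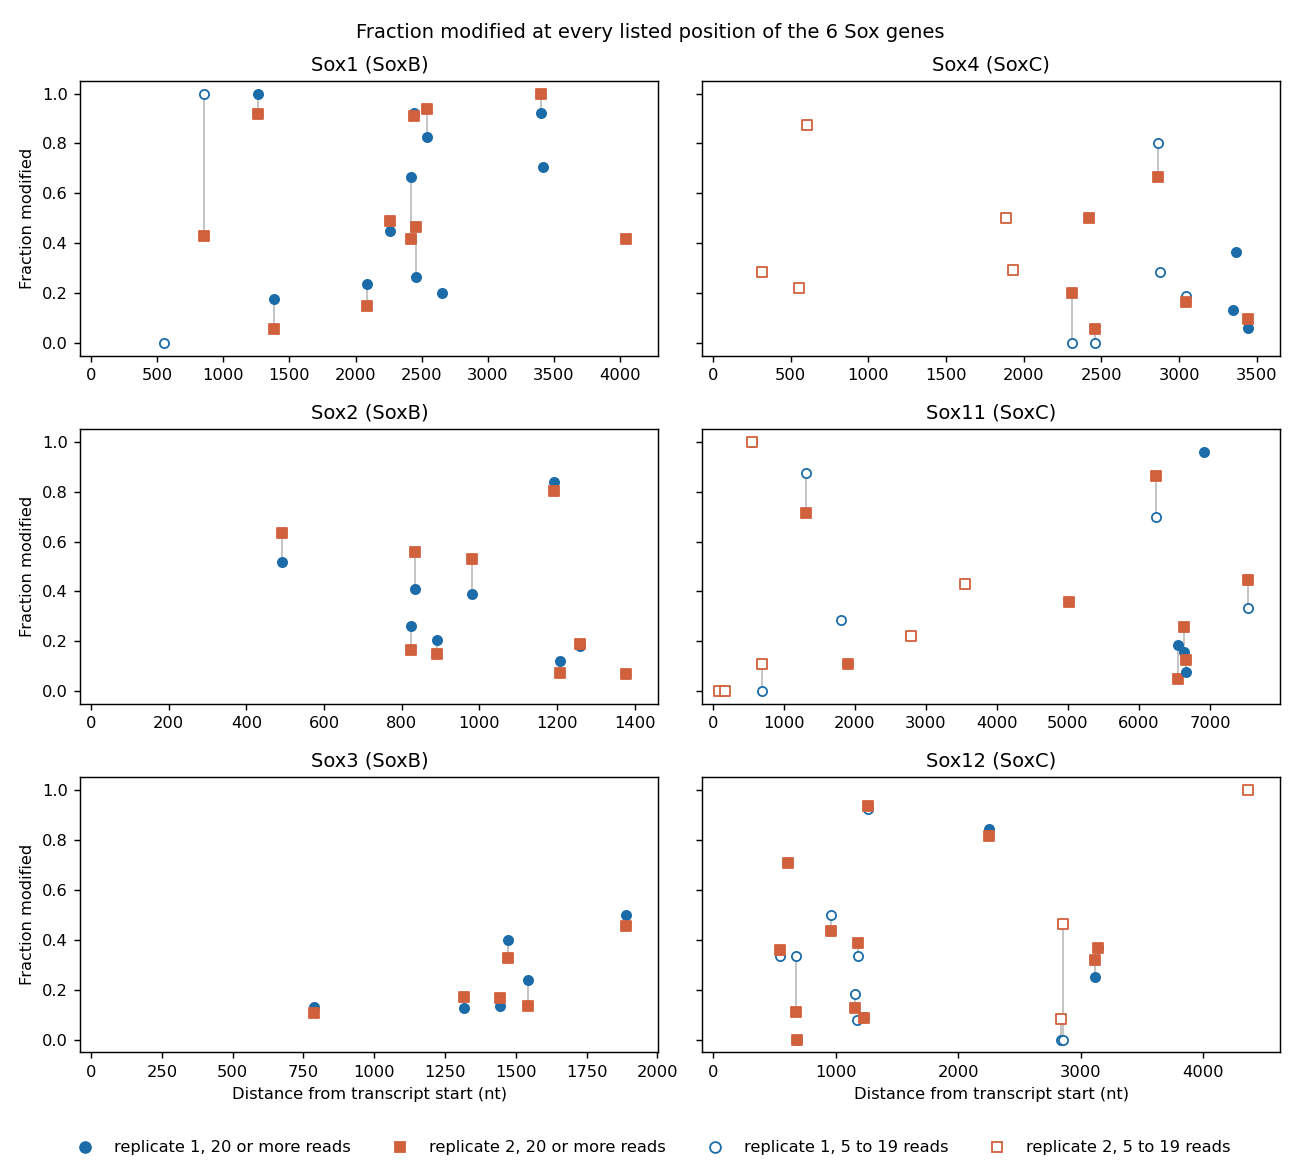
Fraction modified (vertical axis) against the distance from the transcript start in nt (horizontal axis) at every listed position of the 6 genes, with circles for replicate 1 and squares for replicate 2. Filled symbols have 20 or more reads, open ones 5 to 19, and grey lines join the same position in both libraries; the Sox12 points at 2837 and 2858 belong to its second transcript. High and low fractions lie close together in Sox1 and Sox2, while Sox3 stays at or below 0.5.

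Sox1, the SoxB gene that appears with commitment to the neural lineage, carried the most highly modified shared sites of the group. The GGACA site 1259 was modified to 1 in replicate 1 (20 reads) and to 0.919 in replicate 2 (52 reads). At the GGACA site 3399 it was 0.923 over 29 reads and 1 over 90 reads. At the GGACA site 2541 it was 0.828 and 0.940. All of these lay above the GGACA median in both libraries, whereas the remaining GGACA site, 2263, lay below it with 0.45 and 0.491. The AGACT site 2442 had 0.923 over 37 reads and 0.909 over 102 reads, a mean of 0.916 ± 0.00990 (SD, n = 2). This value was at the 99.0th percentile of AGACT sites in each library, the highest rank of the 30 member sites in both.

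Other Sox1 sites were lower or less certain. The AGACT site 2455, 13 nt from the one at 2442, had 0.267 in replicate 1 and 0.466 in replicate 2. The AGACT site 1385 had 0.176 and 0.0577, below the motif median in both. The GGACC site 2083 had 0.238 and 0.149, on either side of its median. The GGACT site 2421 had 0.667 over 37 reads and 0.417 over 100 reads, and this gap of 0.25 was the only difference above 0.2 among the 30 shared member sites. Of all shared sites, 5.94% differed by more than 0.2. The site was still above the GGACT median in both libraries.

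Over its 9 sites Sox1 had a mean fraction of 0.601 ± 0.00976 and a mean deviation of 0.163 ± 0.00589 (each SD, n = 2). The mean deviation was 0.167 in replicate 1 and 0.159 in replicate 2, and 5 sites were above and 2 below the motif median in both libraries. Sites differed more among themselves (SD 0.275 and 0.273 over the 9 sites) than single sites did between the libraries. The SD of the deviation of 1 site between libraries ran from 0.00742 at 2442 to 0.163 at 2421 (n = 2).

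Sox2, the SoxB gene of pluripotent and neural stem cells, had 1 outstanding site. The GGACT site 1192 had fractions of 0.838 over 65 reads and 0.804 over 149 reads, at the 92.3rd and 92.5th percentile of GGACT. The GGACT site 980 was also above its median, with 0.391 and 0.531. The other 6 sites lay below the motif median in both libraries, except the GGACC site 824, which had 0.263 in replicate 1 and 0.165 in replicate 2.

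Among these lower Sox2 sites, the GGACA sites 491 and 833 had 0.517 and 0.412 in replicate 1 and 0.634 and 0.557 in replicate 2. The AGACT site 891 had 0.205 and 0.152, the GGACT site 1207 had 0.12 and 0.0744, and the GGACC site 1260 had 0.182 and 0.189. The mean deviation of Sox2 was 0.0156 and 0.0446, or 0.0301 ± 0.0206 (SD, n = 2), close to 0, and its median deviation was negative in both libraries (-0.0496 and -0.0539). Against the motif mean in place of the median, which lowered the value of all 6 genes, that of Sox2 was -0.0282 and 0.00274. A further position, the AGACT at 1378, was listed only in replicate 2, with 0.0680 over 165 reads. In replicate 1, site 1260, 118 nt away, had 67 reads.

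Sox3, the X-linked SoxB gene, had the deepest coverage and, with 0.240 ± 0.0206 (SD, n = 2) over 6 sites, the lowest mean fraction of its group. Its highest value was 0.5 over 89 reads and 0.453 over 222 reads at the GGACA site 1890, below the GGACA median. The GGACA site 789 had only 0.128 over 58 reads and 0.106 over 161 reads. This deviated by -0.546 and -0.560 from the median and lay at the 6.93rd and 6.38th percentile of GGACA sites. The GGACT site 1316 had 0.125 and 0.169, the GGACC site 1445 had 0.135 and 0.167, and the GGACT site 1542 had 0.239 and 0.132. The only site above its median was the GGACC site 1474, with 0.4 and 0.325. The mean deviation of Sox3 was -0.127 in replicate 1 and -0.151 in replicate 2, and 5 of 6 sites were below the median in both.

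The SoxB genes thus lay in the order Sox1, Sox2, Sox3 in each library. The mean deviation of Sox1 exceeded that of Sox3 by 0.294 in replicate 1 and 0.309 in replicate 2, and that of Sox2 by 0.152 and 0.114. Sox2 exceeded Sox3 by 0.142 and 0.195. Each of these differences was larger than its own spread between libraries (SD 0.0110, 0.0265 and 0.0375, n = 2). The exact permutation test, which flips the sign of the difference in each of the 2 libraries, gave p = 0.5 for each, the smallest value it can give. Without the most deviating site of each gene (2442 of Sox1, 1192 of Sox2 and 789 of Sox3), an alternative chosen after their values were seen, Sox1 still exceeded Sox3 by 0.149 and 0.167 and Sox2 by 0.172 and 0.129. Sox2 minus Sox3 was then -0.0235 in replicate 1 and 0.0375 in replicate 2, so the step from Sox2 to Sox3 rested on these sites. At GGACA alone, the mean fraction of the 4 Sox1 sites was higher than that of the 2 Sox3 sites by 0.486 and 0.558.

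Set among the 286 genes with at least 5 shared sites, Sox3 ranked 19th from the lowest mean deviation, Sox2 ranked 129th and Sox1 ranked 249th. The median of these genes was 0.0416, with an interquartile range of -0.0320 to 0.111. The 3 genes nearest to Sox1 in mean deviation were Sdha (0.163), Uba1 (0.163) and Nr2f6 (0.165). Nearest to Sox2 were Atic (0.0308), Dhx15 (0.0290) and Fam32a (0.0315), and nearest to Sox3 were Ipo4 (-0.138), Sparc (-0.138) and Rpl22 (-0.137). Only the mean deviation was compared, over 2 libraries of 1 group, so no likeness across conditions is implied.

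**Figure D2:**
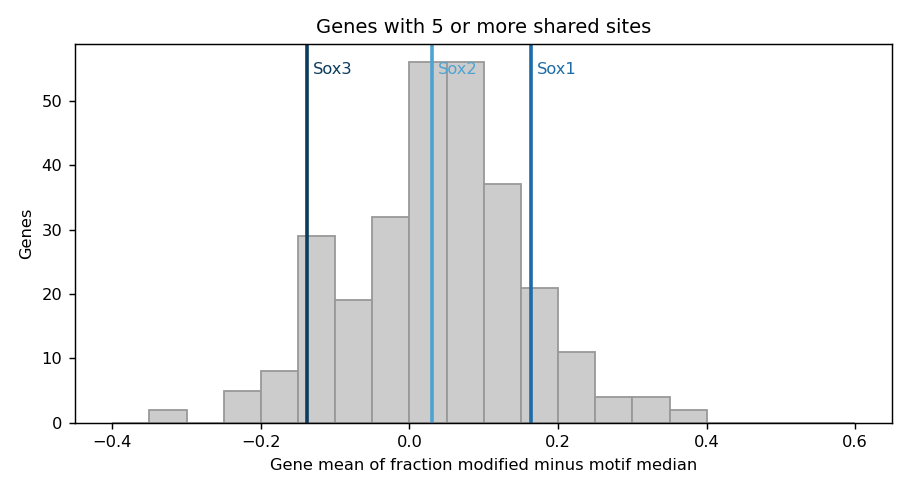
Number of genes (vertical axis) by their mean deviation from the motif median (horizontal axis, difference in fraction) for the 286 genes with 5 or more shared sites, with lines at the 3 SoxB genes. Sox3 lies in the low tail at -0.139, Sox2 near the centre at 0.0301 and Sox1 towards the upper end at 0.163.

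In the SoxC group, Sox11, a gene of newly formed neurons and some progenitors, had 3 shared sites between 6543 and 6668 on its transcript. The GGACA site 6668 had 0.0769 over 25 reads and 0.125 over 59 reads, at the 3.48th and 7.78th percentile of GGACA. The GGACT site 6543 had 0.188 and 0.0476, below the GGACT median in both libraries. The GGACT site 6631 had 0.158 and 0.256, on either side of it. The mean deviation over the 3 sites was -0.251 and -0.233. A GGACT position 241 nt beyond site 6668, at 6909, had 0.958 over 30 reads in replicate 1 and was not listed in replicate 2.

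The value for Sox11 depends on this small stretch. With every position listed in both libraries, down to 5 reads, 8 positions entered and the mean deviation was 0.0622 in replicate 1 and 0.105 in replicate 2, of opposite sign. The motif medians were then taken over all listed positions of a library, so the reference changed too. High values came from the GGACT position 1312, with 0.875 over 10 reads and 0.714 over 29 reads, and from the GGACC position 547, with 1 over 5 and 9 reads. The GGACA position 6242 had 0.7 over 15 reads and 0.862 over 48 reads. Low values were not confined to the far stretch either, since the GGACT position 691 had 0 over 9 reads and 0.111 over 18 reads. Sox11 therefore had both strongly and weakly modified positions in both libraries.

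Sox12, a further SoxC gene, had its highest shared site at 2252, a GGACA with 0.842 over 21 reads and 0.815 over 67 reads. The GGACT sites 3118 and 3139, 21 nt apart, had 0.25 and 0.368 in replicate 1 and 0.318 and 0.367 in replicate 2. No shared Sox12 site was below its median, and the mean deviation was 0.0954 and 0.124. Below the depth limit in replicate 1, the GGACT position 1268 had 0.923 over 14 reads and 0.936 over 45 reads, while position 1229 of the same letters had 0.0909 over 14 and 0.0857 over 44 reads. At position 683, also GGACT, the fraction was 0 over 7 and 27 reads. High and low positions of the same letters thus occurred within this transcript, at depths of 7 to 14 reads in replicate 1.

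Sox12 was also the only member listed on more than 1 transcript. Transcript ENSMUST00000063332.8 held GGACT positions 2837 and 2858, which lie 281 nt below positions 3118 and 3139 of ENSMUST00000182625.1 and have the same letters and the same spacing. If these are the same bases, the reads of 1 site were divided, 7 and 27 reads in replicate 1 and 18 and 74 in replicate 2 for the first of them. Whether they are was not analysed here.

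Sox4, a SoxC gene expressed in many progenitors and early neurons, had a single shared site. The GGACT site 3445 had 0.0625 over 21 reads and 0.0976 over 53 reads, below the median in both libraries. Of its 5 positions listed in both libraries at any depth, the GGACA at 2867 was the highest with 0.8 over 12 and 0.667 over 30 reads. The GGACT position 2459 had 0 over 7 and 0.0556 over 26 reads, the GGACT position 2311 had 0 over 6 and 0.2 over 24 reads, and the AGACT position 3042 had 0.188 over 17 and 0.167 over 32 reads. High and low values are thus present in Sox4 as well, but all of these 5 except site 3445 had a coverage below 20 reads in replicate 1.

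**Figure D3:**
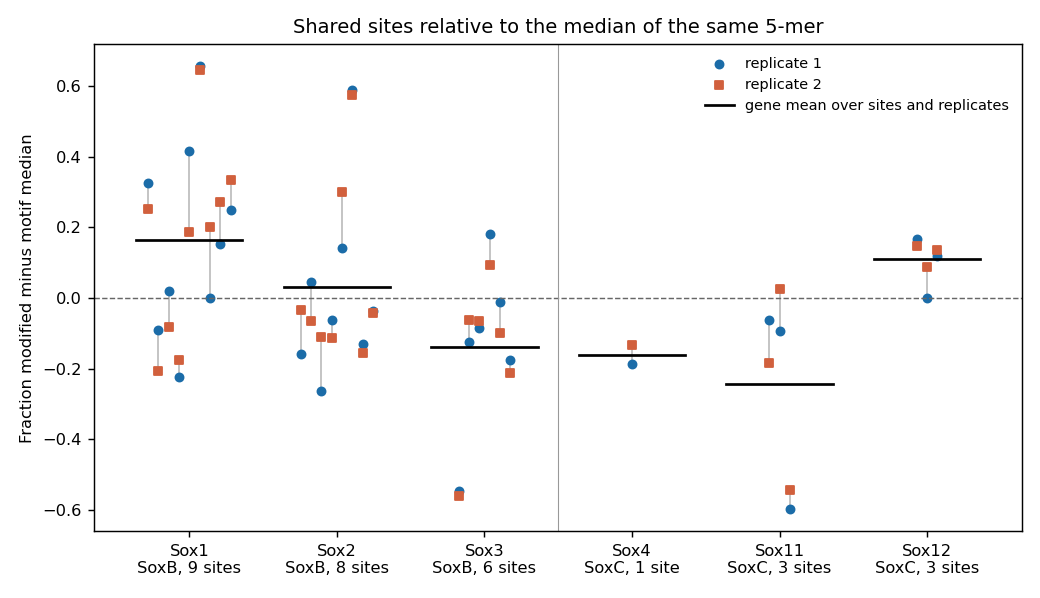
Fraction modified minus the median of the same 5-mer in the same library (vertical axis) at the 30 shared sites, by gene (horizontal axis), with circles for replicate 1, squares for replicate 2 and grey lines joining a site. Black bars are gene means over sites and replicates, from 0.163 in Sox1 to -0.242 in Sox11, and sites spread widely around them.

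The comparison of the 2 groups gave no stable difference. The median deviation of the 23 SoxB sites was -0.0109 in replicate 1 and -0.0615 in replicate 2, and that of the 7 SoxC sites was -0.0625 and 0.0256. SoxB was thus higher by 0.0516 in replicate 1 and lower by 0.087 in replicate 2 (the same exact sign permutation test, two-sided, p = 1, where 0.5 is the smallest possible value). The mean difference, SoxB minus SoxC, was -0.0177 ± 0.0980 (SD, n = 2), smaller than its spread. When each gene counted once, through the median of the gene means, SoxB was higher by 0.203 in replicate 1 and 0.177 in replicate 2. Leaving out Sox12 also made SoxB higher, by 0.129 and 0.0962. Leaving out Sox3 gave 0.0818 and -0.0585. Leaving out Sox11 or Sox1 made the difference negative in both libraries, with -0.0701 and -0.174 without Sox11 and -0.0107 and -0.0906 without Sox1. The median of the gene means is the difference between Sox2 and the single site of Sox4, so the direction depends on how the sites and genes of both groups are weighted. With every site of a library counted, whether or not it was shared, the signs were again opposite. The median deviation was -0.0109 over 25 SoxB sites and -0.0313 over 10 SoxC sites in replicate 1, and -0.0516 and 0.0128 over 26 sites each in replicate 2.

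Over both groups, 10 of 30 shared sites (33.3%) were above the motif median in both libraries, against 45.1% of all shared sites. At any depth the shares were close, 20 of 50 member positions against 40.1% of all. With 50 reads they were 3 of 13 against 47.2%. These 13 sites were all in Sox2 and Sox3, since Sox1 had at most 38 reads in replicate 1. At shared sites 15 (50%) were below the median in both, against 43.9%. A deviation of 0.2 or more upwards in both libraries was seen at 4 sites, namely 1259, 2442 and 3399 of Sox1 and 1192 of Sox2, which is 13.3% against 24.2% of all. One of 0.2 or more downwards was seen at 2 sites, 789 of Sox3 and 6668 of Sox11, 6.67% against 12.3%. The median deviation of the members was -0.0240 and -0.0516, against 0.00975 and 0.00150 for all shared sites. These sites come from 6 transcripts and share their reads within each.

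The groups differed in the letters of their listed positions. GGACT made up 24 of 46 SoxC positions (52.2%) and 7 of 29 SoxB positions (24.1%), against 24.4% of all listed positions. The SoxC count includes positions 2837 and 2858 of the second Sox12 transcript, which may be the same bases as 3118 and 3139 and so be counted again. By gene the share was 50% in Sox4, 43.8% in Sox11 and 62.5% in Sox12, against 14.3% in Sox1 and 33.3% in Sox2 and in Sox3, and the difference was not tested. GGACA, the motif with the highest fractions, made up 10.9% of SoxC positions and 31.0% of SoxB positions, against 33.1% of all. The deviation takes out the motif median but not the spread or skew of a motif, so the make-up can still enter the comparison above.

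Sites of equal letters close to each other were compared next. Among shared sites, 3 member pairs of the same motif lay within 25 nt, a distance set after the positions were seen. In Sox2 the fraction at 1207 minus that at 1192, 15 nt away, was -0.718 in replicate 1 and -0.730 in replicate 2. In Sox1 the fraction at 2455 minus that at 2442 was -0.656 and -0.444. In Sox12 the sites 3118 and 3139 differed by 0.118 and 0.0491. Of all 74 such pairs, 13.5% differed by 0.5 or more the same way in both libraries, and of the member pairs only that of Sox2 did.

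The libraries gave similar fractions at member sites. The median absolute difference was 0.0715 over the 30 sites and 0.0517 over all shared sites, with 14 sites higher in replicate 2 and 16 higher in replicate 1. By gene it was 0.0273 in Sox12, 0.0351 at the single site of Sox4, 0.0452 in Sox3, 0.0757 in Sox2, 0.0888 in Sox1 and 0.0979 in Sox11. Gaps above 0.2 with fewer than 20 reads in a library were seen at the GGACC position 853 of Sox1, with 1 over 15 reads and 0.429 over 41 reads. In Sox12 they were seen at position 2858, with 0 over 7 and 0.462 over 18 reads, and at 674, with 0.333 over 7 and 0.111 over 26 reads. Over all positions listed in both libraries at any depth, 4143 of 18756 differed by more than 0.2.

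**Figure D4:**
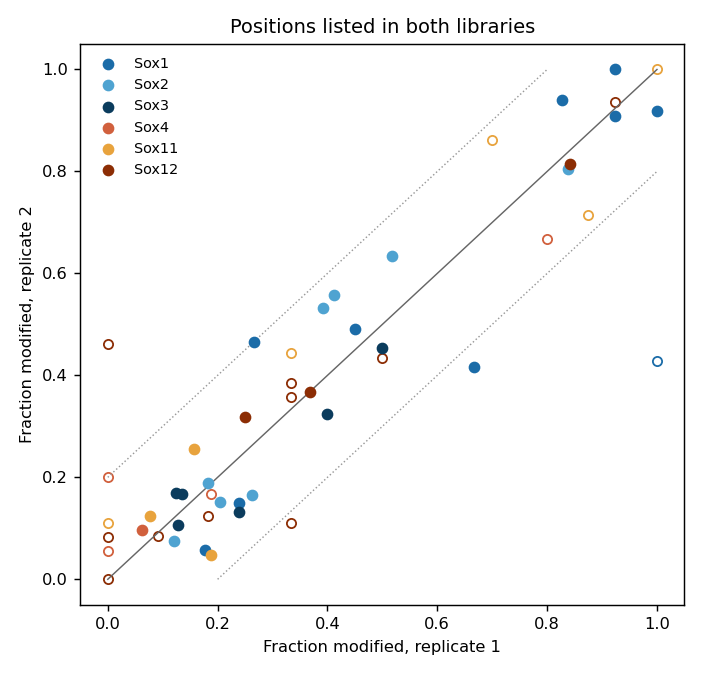
Fraction modified in replicate 1 (horizontal axis) and replicate 2 (vertical axis) at the 50 member positions listed in both libraries, coloured by gene. Filled symbols are the 30 shared sites and open symbols positions with fewer than 20 reads in a library; the solid line marks equality and the dotted lines a difference of 0.2, which 1 shared site, 2421 of Sox1, exceeds.

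Some deep positions were listed in a single library. Of 35 member sites of replicate 1, 5 were not listed in replicate 2 (14.3%, against 17.5% over all transcripts with 20 reads somewhere in both libraries). They were 2653 and 3417 of Sox1, 3344 and 3368 of Sox4 and 6909 of Sox11. In replicate 2 such sites numbered 6 of 52 (11.5%, against 16.6%): 4047 of Sox1, 1378 of Sox2, 2423 of Sox4, 1904 and 5012 of Sox11 and 614 of Sox12. Their depth in the other library is not given, only that of other listed positions. The Sox1 GGACA position 3417 had 0.706 over 30 reads in replicate 1, and in replicate 2 a position 18 nt away had 90 reads. For the Sox4 position 2423 of replicate 2, the nearest one listed in replicate 1, 36 nt away, had only 7 reads. Whether a position that is not listed was unmodified or not examined is not stated, and these shares are near those of all transcripts.

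Coverage was then followed along each transcript. Reads start at the poly(A) tail, so depth normally grows towards the transcript end. In Sox2 it grew from 46 reads at 491 to 67 at 1260 in replicate 1, and from 109 to 165 at 1378 in replicate 2. In Sox3 it grew from 58 to 89 and from 161 to 222 reads between 789 and 1890. In Sox4 the last listed position also had the highest coverage in both libraries.

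The course was different in the other 3 genes. In Sox1 coverage peaked at 38 and 104 reads at 2541 and was lower beyond it, with 30 reads at 3417 in replicate 1 and 90 at 3399 and 48 at 4047 in replicate 2. In Sox12 it was 74 reads at 3118 and 7 at 4366 in replicate 2, 9.46% of the peak. The last listed position had under 50% of the peak in 2 of 6 members in replicate 2, Sox1 and Sox12, and in none of 6 in replicate 1, against 12.8% and 12.3% of all transcripts with at least 5 listed positions and a peak of 20 reads.

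Sox11 was the only member with 2 separate stretches of high coverage. In replicate 2 it had 29 reads at 1312 and 44 at 1904, then 12 at 2791 and 11 at 3555, and again 23 at 5012, 48 at 6242 and 59 at 6668. A listed position with under 50% of the highest coverage on both of its sides was found in 9 of 1905 transcripts of replicate 2 (0.472%), Sox11 included, and in 4 of 709 in replicate 1 (0.564%), without Sox11. The criterion was set after the Sox11 values were seen. Replicate 1 had 10 reads at 1802 and listed no position between there and 6242, so the drop could not be examined in it. The fractions described for Sox11 at 6543 to 6668 thus come from the second stretch, and those at 547 to 1312 from the first.

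**Figure D5:**
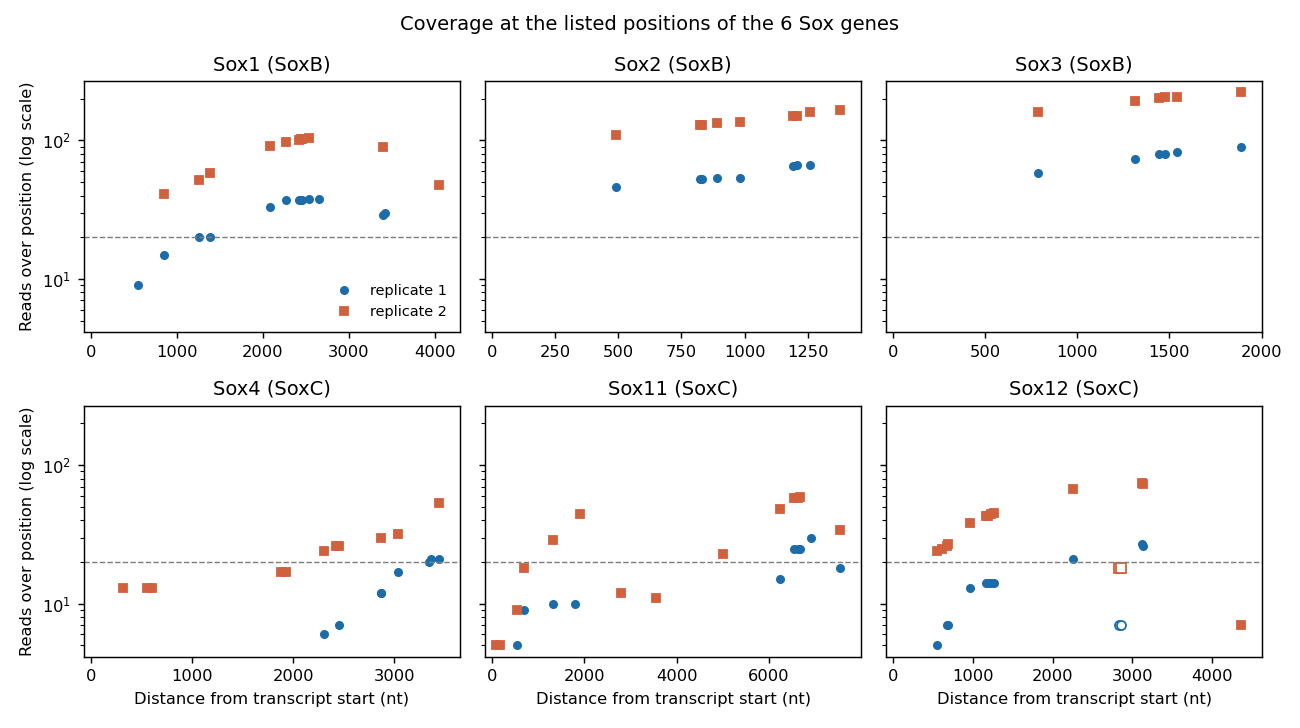
Reads over each listed position (vertical axis, log scale) against the distance from the transcript start in nt (horizontal axis) for the 6 genes, with circles for replicate 1 and squares for replicate 2. The dashed line is the 20-read minimum and the open symbols in the Sox12 panel are its second transcript. Sox2, Sox3 and Sox4 are deepest at their last position and Sox1 falls beyond a peak. In replicate 2 alone, Sox12 falls beyond a peak at its last position and Sox11 has 2 stretches.

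All 6 genes gained more coverage in replicate 2 than the typical gene. The median ratio of coverage, replicate 2 over replicate 1, was 2.76 in Sox1, 2.41 in Sox2, 2.56 in Sox3, 2.52 in Sox4, 2.32 in Sox11 and 2.81 in Sox12. Over the 1887 genes with a shared site it was 1.95, and 45.5% of these genes exceeded 2. The Sox genes lay between the 73.2nd percentile (Sox11) and the 90.6th (Sox12). Counting error limits what any gene shows alone: at the deepest shared site of Sox3 the ratio was 2.49 with a 95% Clopper-Pearson based interval of 1.94 to 3.23, and the interval of each of the other 5 genes also included 2. Since the libraries are the only replicates, the ratio has no further check.

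Other Sox genes were too shallow to compare. Of 14 further family members, 3 were listed in both libraries (Sox9, Sox13 and Sox21), and Sox6 in replicate 2 alone. None had a shared site; the SoxB2 gene Sox21, which opposes the SoxB genes above in neurogenesis, came closest with at most 10 and 27 reads.

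Of 24 genes known as partners or targets of SoxB and SoxC proteins or as markers of the cells they act in, 10 were listed in both libraries and 5 had shared sites, 18 in all. Of these sites 6 were above (background 45.1%) and 12 below (43.9%) the motif median in both libraries, with a median deviation of -0.0961 and -0.102. Tead2, a transcription factor of the Hippo pathway and a target of SoxC proteins, had 8 shared sites on 2 transcripts, with a mean deviation of -0.0911 ± 0.00643 (SD, n = 2). Its GGACA sites reached from 0.0580 and 0.0552 at 1328 to 0.967 and 0.989 at 1698, so the wide range within a transcript seen in the Sox genes was present there too. Cdh2, the cadherin of the neuroepithelium, had 6 shared sites with a mean deviation of -0.136 ± 0.0272 (SD, n = 2), 5 of them below the median in both. Vim, the intermediate filament of progenitor cells, had 2 at up to 431 and 827 reads, a low one with 0.235 and 0.212 at 1560 and a high one with 0.990 and 0.966 at 1837. Outside the rule for naming genes, and chosen after its values were seen, Msi1, an RNA-binding protein of neural progenitors, went the other way: its single shared site, the GGACC at 2937, had 1 over 33 reads and 0.988 over 85 reads, with a mean deviation of 0.769 ± 0.0172 (SD, n = 2). The single site of Gmnn, an inhibitor of DNA replication licensing and also named outside the rule, was below its median with -0.111 and -0.0886.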

How the data were processed

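Poly(A) RNA of day 6 organoids was sequenced as native RNA, 1 µg per library on its own flow cell for about 48 h, per the labels' protocols. The authors deposited, for each library, the fraction modified and the coverage, a count of reads, at positions of Ensembl transcripts. The denominator of the deposited fraction is not given, so no test on reads was run. The base caller, aligner and modification caller are not given in the sources used here. The submitters' processing notes name mm10, yet the deposited starts of all 6 genes differ from RefSeq GRCm38.p6, so the build of the coordinates is unknown. Transcript sequence was used only for bases 10 to 40, from RefSeq, to place the motif, and placement in coding or untranslated regions was not analysed here.

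Positions with 20 or more reads in both libraries were matched on transcript and end position, and motif medians were taken over all sites of a library with Python 3.11.15 and pandas 2.3.3. With no minimum or with 50 reads, the motif medians were taken anew at that depth. The code was tested on simulated sites that varied less between libraries than the real ones, which checks the computation and not the results. All 6 members were named, with every shared site. For Sox1, Sox2 and Sox3 the 3 genes nearest in mean deviation were named, and, of the further gene lists, the 3 genes with most shared sites. Msi1 and Gmnn were named outside this rule. The genes and lists were chosen with earlier results of these data known. Alternatives were no minimum, 50 reads, 1 transcript per gene, other motif references, percentiles, gene weighting and leaving out a library or a gene.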

Additional observations from a re-analysis of the deposited data

Results flagged for a closer look

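A position of Sox4 appeared in data outside the main measurement. The minus table of replicate 2, a separate small table of 35 positions whose difference from the main table is not stated, listed the GGACC position 605 of Sox4 with a fraction of 1 over 6 reads. This is above the 3 reads that a count of 0 would allow, as is every listed position, since none has under 5 reads. The main table of replicate 2 listed the same position with 0.875 over 13 reads, and no member was among the 11 positions of the minus table of replicate 1. Its origin was not tested.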

How the results depend on the processing

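The 30 shared sites became 50 without a coverage minimum and 13 with 50 reads. With 50 reads no SoxC site was left, so the group comparison could not be made. No Sox1 site was left either, so these 13 sites were of Sox2 and Sox3 only. The number above the motif median in both libraries was 20 of 50 and 3 of 13 under these settings, against 40.1% and 47.2% of all positions at the same depths, and the median deviation of members (-0.0378) was -0.0195 without a minimum, -0.0622 with 50 reads and -0.0917 against the motif mean. The SoxB minus SoxC difference (-0.0177) ran from -0.087 to 0.0516 without a replicate. It turned to 0.190 with the median of gene means, 0.0117 without Sox3 and 0.113 without Sox12. With every site of each library, an alternative chosen after seeing the data, it was -0.0220. Without the most deviating site of each gene, also chosen after seeing the data, Sox1 minus Sox3 was 0.158 in place of 0.302 and Sox2 minus Sox3 was 0.00699 in place of 0.169. The mean deviation of Sox2 became -0.0127 against the motif mean and 48.9 as a percentile, under the 50th. That of Sox11 became 0.0835 without a minimum. For each of these the cause was not tested, beyond the fewer or additional sites and the changed motif medians that the coverage settings bring by construction. Of the values of single genes, 9 others moved by more than the replicate SD with the direction kept. The median absolute difference between libraries was 0.0466 with 50 reads in place of 0.0715. The SoxB minus SoxC difference without Sox11 kept its sign but moved to -0.122. With 2 libraries, a mean or median without 1 of them lies within that spread by construction and says nothing about stability. No paired analysis was possible because both libraries belong to 1 group, so no replicate number pairs samples of different groups. Depth limits the SoxC genes most, with at most 30 reads in replicate 1.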

Other observations

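The gain of coverage in replicate 2 was not shared by every gene of the early eye. Rax, the homeobox gene of the eye field whose reporter the cell line carries, had a median ratio of 1.51 over its 5 shared sites, at the 16.2nd percentile of 1887 genes. Lhx2, a homeobox gene of the same field, had 2.35 over 7 sites and Six6, another, had 2.34 over 5 sites, close to Sox2 with 2.41. At the deepest shared site of Rax the ratio was 1.31 with a 95% Clopper-Pearson based interval of 0.928 to 1.86, which lies below the intervals of Sox3 (1.94 to 3.23) and Sox1 (1.87 to 4.08) and overlaps those of Sox2, Sox4, Sox11 and Sox12. These genes were compared after their values were seen, and the intervals cover counting error only.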
